A study of Mus musculus with 21 samples.

Results

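The genes described here are 9 regulators of the passage from G1 into S phase: the D cyclin genes Ccnd1, Ccnd2 and Ccnd3, the E cyclin genes Ccne1 and Ccne2, the kinase gene Cdk2, and the Cip/Kip inhibitor genes Cdkn1a, Cdkn1b and Cdkn1c. They were chosen by name for their roles in this step, with earlier results from these samples known. Matching by gene symbol found 9 of 9 among the 22050 genes and transgenes measured. The relative levels of the inhibitors and the cyclins, and the genes other than the D cyclins, received most attention.

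D cyclins bind the kinases Cdk4 and Cdk6, and E cyclins bind Cdk2; both kinds of complex phosphorylate the retinoblastoma proteins and so release E2F transcription factors, which switch on genes of DNA replication. p16 is an INK4 inhibitor that binds Cdk4 and Cdk6 directly and keeps the D cyclins from them. The Cip/Kip proteins p21 (Cdkn1a), p27 (Cdkn1b) and p57 (Cdkn1c) bind complexes of cyclin and kinase instead, inhibit Cdk2 and are also held by complexes of cyclin D, so that the amounts of inhibitors and D cyclins relative to each other matter for the activity of Cdk2. In epidermis, p21 and p57 are known for their part in the exit of keratinocytes from the cycle as they differentiate.

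The study examined what prolonged expression of the human inhibitor p16 does to mouse epidermis. Messenger RNA was sequenced from the 3′ end in 8 samples of GFP+ keratinocytes from back skin, 4 from p16 mice and 4 from control mice, with 80000 cells pooled from 3 mice in each sample. The p16 mice carried K5-rtTA, tet-p16 and tet-GFP, and the control mice carried K5-rtTA and tet-GFP alone. Both groups were male siblings that received doxycycline in the drinking water from 3 weeks of age for 6 months, on a background mixed from the FVB strain (K5-rtTA) and from C57Bl6 and 129sv (both tet lines). The keratin 5 promoter drives the activator in basal cells of the epidermis and its appendages, which limits the model to those cells. Cells were chosen by GFP and not by p16 itself, after cells with surface markers of fibroblasts, leukocytes and endothelium had been gated out. Because mice were pooled, the spread between samples is that between pools. The samples came from 3 separate experiments, and which sample belongs to which is not given in the sources used here, so differences between experiments could not be taken into account. The samples held 3414362, 2068248, 3067190 and 1760953 reads on genes in control and 3150237, 3202975, 2884544 and 3169274 in p16 replicates 1 to 4. Values are reads divided by a size factor per sample, called normalized values below. In these values 1 read was worth between 0.742 (control replicate 1) and 1.53 (control replicate 4). For replicate 3 of both groups the labels describe the library preparation in other words than for the remaining samples, and calls of named genes that were lost without that pair are given.

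The human CDKN2A transgene, the source of p16, reached 2.5 or less in every control and 10.1, 16 and 7.4 in p16 replicates 2, 3 and 4 (exact permutation p = 0.0571, limma adjusted p = 0.0952). It was called higher with the replicate number as a block (limma adjusted p = 0.0424) and in edgeR without a filter (edgeR adjusted p = 0.0375). With a value of 1.6 from 2 reads, the library labelled p16 replicate 1 lay among the controls, so this gene did not bear out its label, and each direction given for the p16 group includes that library by its label. On the first principal component that library lay with the p16 group, with a score of 29.5. The other p16 samples had 12.6 to 38.9 and the controls -30.2 to -23.3. Its values of Cd34 (8.8), Lhx2 (103) and Scd1 (230.3) lay among those of the other p16 samples or below them. They lay far under the lowest control (122, 391 and 678). Cd34, Lhx2 and Scd1 were picked from genes called with that library counted as p16, so their values are no independent check of its label. Without that library, the log2 fold change of the transgene was 2.27 (limma adjusted p = 0.0169, with a range over all alternatives of 0.0169 to 0.276). Ccnd1 and Ccnd2 were also called higher without that library (log2 fold changes 0.92 and 0.63, limma adjusted p = 0.00173 and 0.0165), and none of the other 7 genes was called either with or without it. GFP itself was lower in p16 cells (3555 ± 341 against 5330 ± 809 in controls, SD, n = 4), with a log2 difference of -0.58 (limma adjusted p = 0.0167), and this call was lost without control replicate 2 (0.0506), p16 replicate 1 (0.0518), p16 replicate 3 (0.0574) or replicate 3 of both groups (0.127). Mouse Cdkn2a lay between 0.0 and 5.5 in all 8 samples (limma adjusted p = 0.914). Krt5, the keratin of basal keratinocytes, was the most abundant gene of its marker list, with values from 9046 to 17968.5 in control and from 9477 to 10856 in p16 samples. Endothelial genes were near or at 0, with 4 of 7 markers (Cdh5, Kdr, Emcn and Cldn5) at 0 in every sample.

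Of the 9 genes, all passed the filter on low values, and 2 were higher in p16 cells at a limma adjusted p under 0.05 (Ccnd1 and Ccnd2), where 1.24% of the 12782 genes tested were. None of the 9 was lower by that rule, against 2.61% of all genes, and edgeR and DESeq2 on recovered reads also called 2 higher and 0 lower. At an unadjusted limma p under 0.05, 3 were higher (the D cyclins; 7.02% of all genes) and 3 were lower (Ccne2, Cdkn1a and Cdkn1b; 8.93% of all genes). The values of the groups did not overlap for 3 genes higher in p16 cells, again the D cyclins (4.19% of all genes), and for 0 genes lower in p16 cells (5.63% of all genes). The 9 genes were chosen with earlier results from these samples known, so these counts are not independent evidence of a direction. The median log2 fold change over all genes tested was -0.00275.

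**Figure D1:**
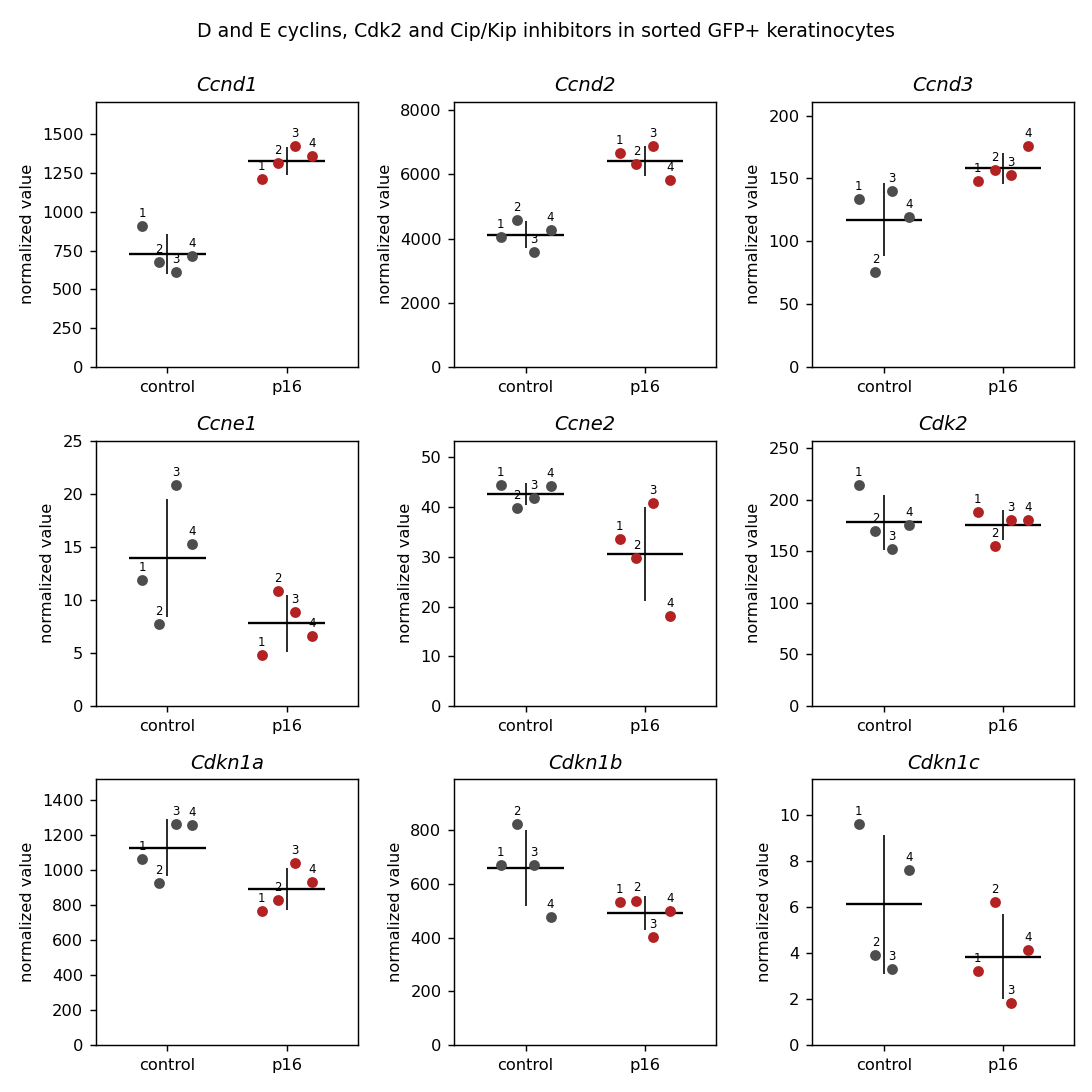
Normalized values (vertical axes, from 0) of the 9 genes in each control (grey) and p16 (red) sample, numbered by replicate; horizontal lines are group means and vertical lines ± 1 SD (n = 4). The groups separate for Ccnd1, Ccnd2 and Ccnd3 and overlap for the other 6 genes.

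The D cyclins couple growth signals to Cdk4 and Cdk6. Ccnd2 had normalized values of 4041.5, 4576, 3574 and 4266 in control and 6664, 6325, 6886 and 5822 in p16 replicates 1 to 4. Ccnd1 had 906, 679, 612 and 715 in control and 1210.5, 1315, 1425 and 1358 in p16 replicates 1 to 4. All 4 p16 samples lay above all 4 control samples for both genes. The log2 fold change was 0.88 ± 0.11 (SE) for Ccnd1 (limma adjusted p = 0.000452) and 0.65 ± 0.10 for Ccnd2 (limma adjusted p = 0.00284), with 95% confidence intervals of 0.63 to 1.12 and 0.42 to 0.87. Ccnd3, the D cyclin best known from lymphocytes, had 133.5, 75.7, 140 and 119 in control and 148, 157, 152.5 and 176 in p16 replicates 1 to 4. Its groups did not overlap, but control replicate 3 and p16 replicate 1 lay close together, and the log2 fold change of 0.47 (95% confidence interval 0.10 to 0.83) missed the threshold (limma adjusted p = 0.172, exact permutation p = 0.0286, the smallest that 4 samples against 4 can give). Without control replicate 2, the lowest sample, the log2 fold change of Ccnd3 was 0.27 (limma adjusted p = 0.305, with a range over all alternatives of 0.113 to 0.305).

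The shares of the D cyclins in their summed values were described without a test. Ccnd2 made up 79.5%, 85.9%, 82.6% and 83.6% of the summed D cyclin values in control and 83.1%, 81.1%, 81.4% and 79.1% in p16 replicates 1 to 4. Ccnd1 made up 14.7% ± 2.19 in control and 16.8% ± 1.38 in p16 cells, and Ccnd3 2.41% ± 0.759 and 2.01% ± 0.269 (SD, n = 4), and the ranges of the groups overlapped for all 3 shares. For Ccnd1 the overlap came from control replicate 1 (17.8%), since the other controls (12.7% to 14.2%) lay below all p16 samples (15.1% to 18.5%). Divided by the length of the longest coding transcript, in kilobases, the share of Ccnd2 was 72.2% ± 3.87 in control and 70.2% ± 2.25 in p16 cells, that of Ccnd1 21.6% ± 2.80 and 24.6% ± 1.72, and that of Ccnd3 6.245% ± 1.88 and 5.21% ± 0.633 (SD, n = 4). Libraries made from 3′ ends count roughly 1 fragment for each transcript whatever its length. The undivided shares are therefore the more direct measure of relative transcript numbers, and those per kilobase are given beside them.

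The E cyclins activate Cdk2 late in G1, and both were low. Ccne2 had normalized values of 44.5, 39.8, 41.8 and 44.3 in control and 33.6, 29.7, 40.8 and 18.1 in p16 replicates 1 to 4. The controls were tightly grouped (42.6 ± 2.235, SD, n = 4) and the p16 samples spread widely (30.55 ± 9.49), with p16 replicate 4 lowest and p16 replicate 3 inside the control range. The log2 fold change of Ccne2 was -0.52 (95% confidence interval -1.01 to -0.04), which missed the threshold (limma adjusted p = 0.271, exact permutation p = 0.0571). Without p16 replicate 4 it was -0.30 (limma adjusted p = 0.503, with a range over all alternatives of 0.172 to 0.572). Ccne1 had 11.9, 7.7, 20.9 and 15.3 in control and 4.8, 10.9, 8.9 and 6.6 in p16 replicates 1 to 4, from 6 to 25 reads a sample. Its groups overlapped through control replicate 2, and its log2 fold change of -0.74 had a 95% confidence interval of -1.48 to 0.0022 (limma adjusted p = 0.315), and a difference was not detected. Per kilobase of transcript, the mean level of Ccne2 was above that of Ccne1 in both groups, at 14.2 against 6.975 in control and 10.2 against 3.90 in p16 cells.

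Cdk2, the kinase that the E cyclins activate, had values of 214, 169, 152 and 176 in control and 188, 155, 180.0 and 180.1 in p16 replicates 1 to 4. The range of the p16 samples lay inside that of the controls, and the means were 178 ± 26.3 and 176 ± 14.5 (SD, n = 4). The log2 fold change was -0.01 with a 95% confidence interval of -0.27 to 0.25 (limma adjusted p = 0.984), so a difference was not detected, and its sign turned in 3 of 19 alternative settings. Within a sample, Ccne2 over Cdk2 was 0.208, 0.235, 0.275 and 0.252 in control and 0.179, 0.192, 0.227 and 0.101 in p16 replicates 1 to 4, and the groups overlapped.

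Cdkn1a encodes p21, a target of p53, and had the highest level of the 3 inhibitors per kilobase of transcript. It had normalized values of 1067.5, 925, 1267 and 1259 in control and 766, 829.2, 1044 and 933 in p16 replicates 1 to 4. The 2 highest samples were controls and the 2 lowest were p16 samples, while p16 replicates 3 and 4 lay above control replicate 2. Cdkn1a had a log2 fold change of -0.34 ± 0.12 (SE; 95% confidence interval -0.60 to -0.07), which missed the threshold (limma adjusted p = 0.174, exact permutation p = 0.0857).

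Cdkn1b encodes p27, an inhibitor controlled largely through its translation and its degradation. It had 670, 824, 671 and 478 in control and 532, 538, 401 and 499.9 in p16 replicates 1 to 4. Control replicate 4 lay among the p16 samples, and the other 3 controls lay above all 4 p16 samples. Cdkn1b had a log2 fold change of -0.41 ± 0.15 (SE; 95% confidence interval -0.72 to -0.09) and missed the threshold (limma adjusted p = 0.172, exact permutation p = 0.114). Without control replicate 4, the library with the fewest reads, the log2 fold change was -0.55 and Cdkn1b passed it (limma adjusted p = 0.0332), and across all alternatives its adjusted p ran from 0.0208 to 0.502. In bulk samples such as these, fewer cells that express a gene and less RNA of it in each cell cannot be told apart.

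Cdkn1c encodes p57, the product of an imprinted gene. It was close to the limit of detection, with 13, 3, 4 and 5 reads in control and 4, 8, 2 and 5 reads in p16 replicates 1 to 4. These correspond to normalized values of 9.6, 3.9, 3.3 and 7.6 and of 3.2, 6.2, 1.8 and 4.1, which overlapped. The 95% confidence interval of its log2 fold change ran from -1.44 to 0.36 (limma adjusted p = 0.603), and a difference was not detected. The log2 fold change itself was -0.54, and it was -0.31 without control replicate 1 and -0.30 without p16 replicate 3.

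**Figure D2:**
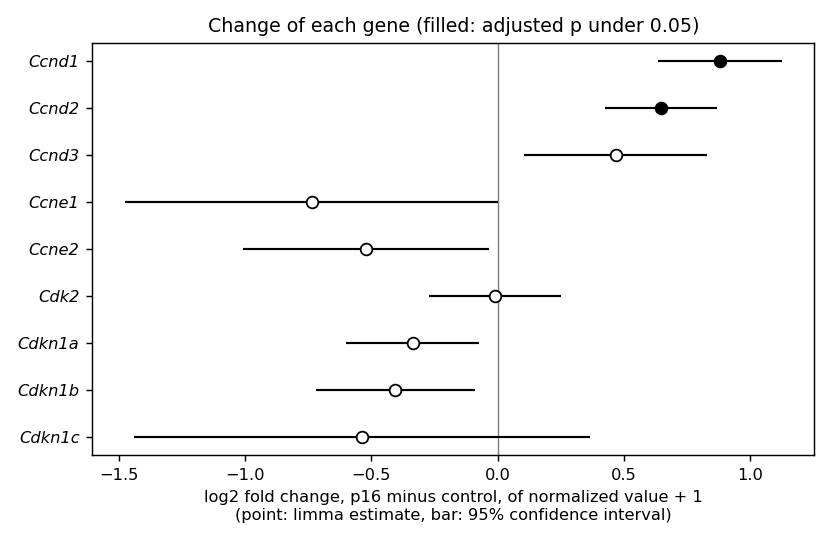
Log2 fold change of the normalized value + 1 between p16 and control cells (horizontal axis) for the 9 genes, with 95% confidence intervals from limma (n = 4 samples per group); filled points had an adjusted p under 0.05. The D cyclins lie above 0, Cdk2 lies at -0.01 with a sign that turned in 3 of 19 alternative settings, and the E cyclins and inhibitors lie below 0.

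Within each group, some samples with a high Cdkn1a had a low Cdkn1b. Control replicate 2 had the lowest Cdkn1a and the highest Cdkn1b of the controls, and control replicate 4 had the lowest Cdkn1b beside a high Cdkn1a. Control replicate 3 did not follow this. It had the highest Cdkn1a (1267), and its Cdkn1b (671) was near that of control replicate 1 (670) and above that of control replicate 4 (478). Among the p16 samples, replicate 3 had the highest Cdkn1a and the lowest Cdkn1b. The summed Cip/Kip values were 1747, 1753, 1941 and 1745 in control and 1301, 1373, 1446 and 1437 in p16 replicates 1 to 4. The sums did not overlap between the groups, although Cdkn1a and Cdkn1b each did, and their means were 1796 ± 96.4 and 1389 ± 67.3 (SD, n = 4). The SD of the sum lay below those of Cdkn1a (164) and Cdkn1b (142) in control cells, while in p16 cells it lay between those of Cdkn1b (63.4) and Cdkn1a (122). No test was made of sums over the chosen genes. Cdkn1a supplied 62.8% ± 8.10 of the sum in control and 64.1% ± 5.97 in p16 cells, Cdkn1b 36.8% ± 8.16 and 35.6% ± 5.87, and Cdkn1c under 1% in every sample on either scale. Per kilobase of transcript, Cdkn1a supplied 78.3% ± 5.84 in control and 79.3% ± 4.185 in p16 cells, and Cdkn1b 21.3% ± 5.895 and 20.3% ± 4.05.

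The summed D cyclin values were 5081, 5331, 4326 and 5100 in control and 8023, 7797, 8463 and 7356 in p16 replicates 1 to 4. The ratio of summed Cip/Kip to summed D cyclin values, which does not depend on how samples were scaled, was 0.344, 0.329, 0.449 and 0.342 in control and 0.162, 0.176, 0.171 and 0.195 in p16 replicates 1 to 4. The lowest control lay well above the highest p16 sample, and control replicate 3 stood above the other controls. Without replicate 3 of both groups, the log2 ratio of p16 over control was -0.93, against -1.055 with all samples. The mean ratio was 0.366 ± 0.0556 in control and 0.176 ± 0.0141 in p16 cells (SD, n = 4), 2.08-fold higher in control cells. The D cyclin sum was 1.595-fold higher in p16 cells and the Cip/Kip sum 1.29-fold higher in control cells, so the larger part of the difference in the ratio came from the D cyclins. Per kilobase of transcript the ratio was higher in every sample, at 0.705, 0.668, 0.954 and 0.775 in control and 0.3365, 0.365, 0.383 and 0.410 in p16 replicates 1 to 4, and it differed 2.08-fold in the same direction. These are levels of mRNA, and how much of each protein they gave was not measured here.

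**Figure D3:**
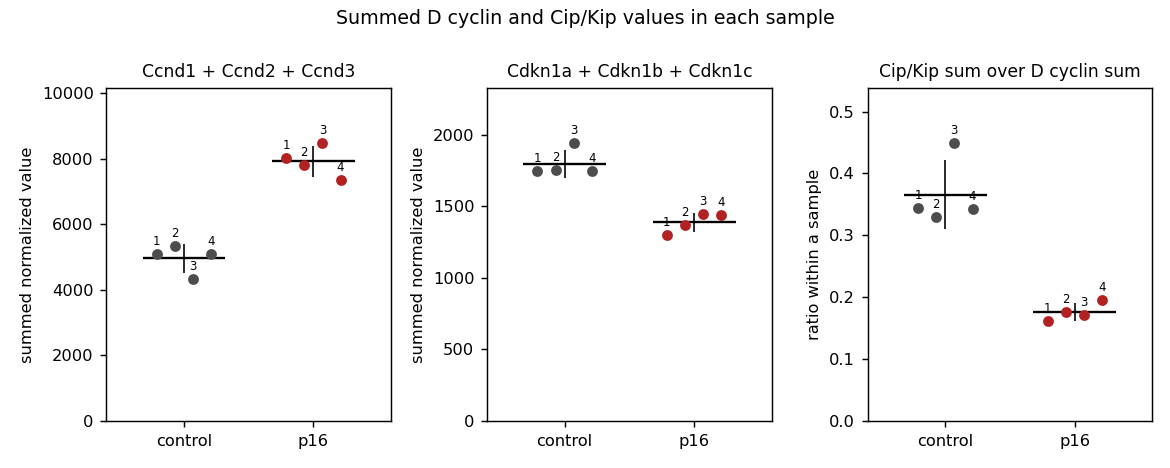
Summed normalized values of the D cyclins (left) and the Cip/Kip inhibitors (middle), and the ratio of these sums within each sample (right), in control (grey) and p16 (red) samples numbered by replicate; horizontal lines are means and vertical lines ± 1 SD (n = 4). The ratio lies between 0.329 and 0.449 in control samples and between 0.162 and 0.195 in p16 samples.

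In the ratios of Cdkn1a over Ccnd1 and of Cdkn1b over Ccnd2 the groups did not overlap. Ccnd1 and Ccnd2 alone already separated the groups, while Cdkn1a and Cdkn1b did not, so these ratios are not further evidence of a difference. Cdkn1a over Ccnd1 was 1.179, 1.36, 2.07 and 1.76 in control and 0.633, 0.631, 0.732 and 0.687 in p16 replicates 1 to 4 (normalized values, not divided by length), and the lowest control lay well above the highest p16 sample. Cdkn1b over Ccnd2 was between 0.112 and 0.188 in control and between 0.0582 and 0.0859 in p16 samples. E cyclins over D cyclins gave 0.0111, 0.00891, 0.0145 and 0.0117 in control and 0.00479, 0.00521, 0.00587 and 0.00336 in p16 replicates 1 to 4, and these ranges did not overlap. The summed E cyclin values alone did overlap, at 47.5 to 62.7 in control and 24.7 to 49.7 in p16 samples, while the summed D cyclin values did not. Per kilobase of transcript, the mean levels in control cells ran from Ccnd2 (650.0) over Cdkn1a (543), Ccnd1 (195), Cdkn1b (145), Cdk2 (73.9), Ccnd3 (55.45), Ccne2 (14.2) and Ccne1 (6.975) to Cdkn1c (3.21). In p16 cells Ccnd2 (1015) and Cdkn1a (429) were again the highest, followed by Ccnd1 (355), Cdkn1b (108), Ccnd3 (74.9), Cdk2 (73.0), Ccne2 (10.2), Ccne1 (3.90) and Cdkn1c (2.01). This order in p16 cells depends on the division by length, which libraries made from 3′ ends do not call for. In normalized values not divided by length, the p16 mean of Ccnd1 (1327) lay above that of Cdkn1a (893), and that of Cdk2 (176) above that of Ccnd3 (158).

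All coordinates are those of GRCm38. Ccnd1 (chr7:144929931-144939925), Ccne1 (chr7:38097984-38107534) and Cdkn1c (chr7:143458339-143461050) lie on the minus strand of chromosome 7, where Ccnd1 and Cdkn1c are 1.47 Mb apart. Ccnd2 (chr6:127125162-127152193, minus strand) and Cdkn1b (chr6:134920401-134925513, plus strand) are 7.77 Mb apart on chromosome 6. Ccnd3 (chr17:47505051-47599691) and Cdkn1a (chr17:29090976-29100727) lie 18.4 Mb apart on the plus strand of chromosome 17. Ccne2 (chr4:11191351-11204779) is on the plus strand of chromosome 4, and Cdk2 (chr10:128697939-128705031) on the minus strand of chromosome 10. A D cyclin gene and a Cip/Kip gene thus share each of chromosomes 6, 7 and 17.

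Several of these genes overlap a gene on the opposite strand, and whether reads were counted by strand is not given in the sources used here, so the reads of such partners may not have been told apart. The 3′ part of Ccne2 lies within Ints8, a gene of the Integrator complex, which had values of 182, 199, 166 and 192.5 in control and 172, 135, 177 and 95.4 in p16 replicates 1 to 4. Ints8 and Ccne2 were both lowest in p16 replicate 4 and second lowest in p16 replicate 2. The ratio of Ccne2 to Ints8, computed like those of the next pairs after these values were seen, lay between 0.200 and 0.252 in control and between 0.190 and 0.230 in p16 samples, and Ints8 had a log2 difference of -0.39 (limma adjusted p = 0.272). The 3′ end of Ccnd1 overlaps Oraov1, which had values from 49.3 to 64.5 in control and 58.4, 67.1, 88.7 and 120.0 in p16 replicates 1 to 4 (log2 fold change 0.52, limma adjusted p = 0.210), far below Ccnd1. The ratio of Ccnd1 to Oraov1 was 14.0, 12.9, 12.4 and 12.3 in control and 20.7, 19.6, 16.1 and 11.3 in p16 replicates 1 to 4, so the groups overlapped through p16 replicate 4. The end of Ccnd3 overlaps Bysl, with values from 38.5 to 67.7 in control and from 58.5 to 69.9 in p16 samples (log2 fold change 0.25, limma adjusted p = 0.555). Ccnd3 and Bysl were both lowest in control replicate 2 and highest in p16 replicate 4, and the ratio of Ccnd3 to Bysl overlapped between the groups, at 1.97 to 2.37 in control and 2.31 to 2.61 in p16 samples. Cdk2 overlaps the pigment gene Pmel at its 5′ end, which 3′ libraries read little. Ccnd3 also has a processed copy, Ccnd3-ps, with 881 bases aligned at 96.3% identity, and its reads could have been split or lost there. Ccnd2, Cdkn1a and Cdkn1c each overlap a noncoding or unclassified transcript on the opposite strand, for which no values were used here. Transcripts of Cdkn1a also share stretches of 135 to 165 bases, at 95% to 97.1% identity, with those of many other genes, and reads from these stretches could have been lost. Ccne1 and Cdkn1b overlap no annotated gene.

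Promoter sequences, from 250 bases before to 50 after a start, were taken from RefSeq (GRCm38.p6) and matched 5 of the 9 genes: Ccnd3 and Cdkn1a with 2 starts each, and Ccne1, Cdk2 and Cdkn1b with 1. Ccnd1, Ccnd2, Ccne2 and Cdkn1c had no entry. They were searched on both strands for the TCF/LEF core ATCAAAG, the E2F sites TTTCCCGC and TTTGGCGC, the E box CACGTG and the forkhead core TGTTTAC, which 3.73%, 1.07%, 0.514%, 7.15% and 3.65% of 32851 promoters of the same length held. The promoter of Cdk2 held 1 match to TTTCCCGC on its minus strand, at position -140 from the start, and the first promoter of Ccnd3 held 1 match to TGTTTAC at -243. The other 5 promoters held no match to these letters, and a match is a description of the sequence and not evidence of a bound factor. The promoters of the only members with a match are shown with the motif in capitals, beside those of the inhibitors Cdkn1a (second start) and Cdkn1b, whose values had the same direction.
Cdk2, chr10:128705002-128705301, minus strand: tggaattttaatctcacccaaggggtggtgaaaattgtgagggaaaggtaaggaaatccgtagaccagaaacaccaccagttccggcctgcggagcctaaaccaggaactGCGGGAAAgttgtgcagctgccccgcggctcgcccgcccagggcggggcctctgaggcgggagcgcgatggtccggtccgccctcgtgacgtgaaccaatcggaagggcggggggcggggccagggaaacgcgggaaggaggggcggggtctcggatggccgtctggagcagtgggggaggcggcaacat
Ccnd3, chr17:47504801-47505100, plus strand: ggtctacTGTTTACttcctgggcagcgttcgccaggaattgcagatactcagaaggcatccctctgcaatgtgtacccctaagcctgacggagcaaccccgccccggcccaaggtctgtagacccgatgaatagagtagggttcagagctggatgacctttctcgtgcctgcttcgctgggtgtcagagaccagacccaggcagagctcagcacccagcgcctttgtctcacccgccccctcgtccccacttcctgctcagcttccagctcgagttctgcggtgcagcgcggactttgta
Cdkn1a, chr17:29093519-29093818, plus strand: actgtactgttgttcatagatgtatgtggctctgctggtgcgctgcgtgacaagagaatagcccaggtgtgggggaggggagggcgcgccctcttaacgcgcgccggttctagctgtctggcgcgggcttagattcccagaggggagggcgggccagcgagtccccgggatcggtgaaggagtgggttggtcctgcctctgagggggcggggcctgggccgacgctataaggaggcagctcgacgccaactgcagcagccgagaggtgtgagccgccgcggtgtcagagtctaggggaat
Cdkn1b, chr6:134920151-134920450, plus strand: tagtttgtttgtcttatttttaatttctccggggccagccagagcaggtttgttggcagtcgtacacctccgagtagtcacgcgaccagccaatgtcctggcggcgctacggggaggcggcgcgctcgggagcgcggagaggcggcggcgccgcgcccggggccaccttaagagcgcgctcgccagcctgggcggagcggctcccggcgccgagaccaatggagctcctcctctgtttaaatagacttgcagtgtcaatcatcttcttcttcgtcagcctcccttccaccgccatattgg
GC content was 64.7% for Cdk2, 59.3% for this promoter of Ccnd3, 64.7% for this promoter of Cdkn1a and 62.0% for Cdkn1b, against a median of 52.7% over all promoters.

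Among 27 direct partners of these genes in the passage from G1 to S phase and the INK4 inhibitors, limma called 0 higher and 0 lower, edgeR and DESeq2 likewise, and at an unadjusted limma p under 0.05 there were 3 higher and 4 lower; the median log2 fold change was -0.04. The 3 with the smallest adjusted p were Rbl1, which encodes the pocket protein p107, Cdk6, and Cdk1, the kinase of mitosis. Rbl1 had 122, 172, 119 and 136 in control and 94.3, 120.2, 112 and 83.0 in p16 replicates 1 to 4 (log2 fold change -0.42, limma adjusted p = 0.170). Cdk6, a partner of the D cyclins, had 422, 331, 292 and 310.1 in control and 453, 468.5, 492 and 330.5 in p16 replicates 1 to 4 (log2 fold change 0.36, limma adjusted p = 0.207). Of the p16 samples, 3 exceeded every control in Cdk6, and without p16 replicate 4 it passed the threshold (log2 fold change 0.49, limma adjusted p = 0.0299, with a range over all alternatives of 0.0299 to 0.612). Cdk1 had a log2 difference of -0.39 (limma adjusted p = 0.214). Of genes picked after their values were seen, Cdk4, the other partner of the D cyclins, had a log2 fold change of 0.11 (95% confidence interval -0.10 to 0.32), and the INK4 genes Cdkn2b, Cdkn2c and Cdkn2d had 0.03, -0.47 and -0.11 (limma adjusted p = 0.979, 0.272 and 0.795).

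Of 20 genes that turn over cyclins and Cip/Kip proteins, limma, edgeR and DESeq2 called 0 in either direction, with 1 higher and 1 lower at an unadjusted limma p under 0.05 and a median log2 fold change of 0.01. Rnf123, a ubiquitin ligase that targets p27, had 191, 194, 174 and 196 in control replicates 1 to 4 and at least 218 in every p16 sample (log2 fold change 0.28, limma adjusted p = 0.159). Dtl, the substrate receptor that brings p21 to the Cul4 ligase, had 69.7, 82.1, 73.5 and 91.7 in control and 56.0, 65.6, 60.3 and 58.4 in p16 replicates 1 to 4 (log2 fold change -0.39, limma adjusted p = 0.173). The groups did not overlap for Rnf123 or Dtl, which were named for their small adjusted p. Such separation was seen for 4.19% of all genes on the higher and 5.63% on the lower side. Ambra1, a receptor for D cyclins, had overlapping groups and a log2 difference of 0.23 (limma adjusted p = 0.433). Of 18 other cyclins, limma, edgeR and DESeq2 called 0 in either direction, with 1 higher and 0 lower at an unadjusted limma p under 0.05 and a median of 0.02. Ccng2, Ccnf and Ccnh had the smallest adjusted p among them (0.188, 0.343 and 0.465 in limma), with log2 fold changes of 0.30, -0.48 and 0.22. That of Ccnf ran from -0.61 to -0.30 with single samples left out.

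Cdkn1a is a classical target of p53, and 17 of 18 other p53 targets were tested (Gdf15 was at 0 in every sample). Limma called 0 in either direction, with 3 higher and 2 lower at an unadjusted p under 0.05, edgeR without a filter and DESeq2 called 1 higher, and the median log2 fold change was 0.06 in limma and -0.01 in DESeq2. Sesn2, a stress sensor, had 108, 136, 157 and 166.5 in control and 261, 172, 217 and 191 in p16 replicates 1 to 4 (log2 fold change 0.57, limma adjusted p = 0.0604, with a range over all alternatives of 0.0236 to 0.201). Limma called it higher with total count scaling (limma adjusted p = 0.0449), without p16 replicate 2 (0.0394), without p16 replicate 4 (0.0454) and without replicate 4 of both groups (0.0288), and it was the gene called by edgeR and DESeq2. Plk2, a polo kinase, had a log2 difference of 0.53 (limma adjusted p = 0.103), and Eda2r, a receptor of the TNF family, had -0.96 (limma adjusted p = 0.0952). The groups did not overlap for these 3 genes, which lay on both sides of 0 and were named for their small adjusted p. Over all genes tested, the groups did not overlap for 4.19% higher and 5.63% lower in p16 cells.

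Of 21 transcription factors that act on the Cip/Kip genes, 1 rose and 1 fell by limma's adjusted p, and the median log2 fold change was 0.04. Trp73, which encodes a relative of p53, rose from 83.1, 86.0, 64.3 and 70.3 in control to 125, 117, 164 and 131 in p16 replicates 1 to 4 (log2 fold change 0.81 ± 0.14, SE, limma adjusted p = 0.00547), a call that was lost without replicate 3 of both groups (limma adjusted p = 0.0610). Cebpb, a factor that promotes keratinocyte differentiation, fell from 842, 915.0, 915.4 and 981 to 580.5, 706, 792 and 659 (log2 fold change -0.42 ± 0.10, SE, limma adjusted p = 0.0339). Neither gene overlapped between groups, where 4.19% of all genes did not overlap on the higher and 5.63% on the lower side. Cebpb held its call in only 2 of 8 fits without 1 sample, and its adjusted p ran from 0.00794 to 0.135 over all alternatives. Without each of control replicates 1 to 4 and of p16 replicates 1 and 2 its limma adjusted p was 0.0553, 0.0745, 0.0787, 0.0967, 0.135 and 0.0543, and without replicate 3 of both groups 0.0586. Without replicate 4 of both groups, Cebpb lost the call (limma adjusted p = 0.0911) and Mycn was called higher. Cebpa was called lower in DESeq2. Of 13 neighbours of Cdkn1c in its imprinted domain, 11 matched by symbol and 9 were tested; limma, edgeR and DESeq2 called 0 in either direction, with 0 at an unadjusted limma p under 0.05, and the median was 0.07. Ascl2, Nap1l4 and Phlda2 had the smallest adjusted p there (0.314, 0.513 and 0.578 in limma), with log2 fold changes of 0.41, 0.17 and -0.57. These ran from 0.23 to 0.55, from 0.11 to 0.21 and from -0.77 to -0.17 with single samples left out.

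The genes of S phase and mitosis lie downstream of Cdk2 and E2F. Of 34 such genes, 32 had a log2 mean in p16 cells below that of the controls. Their median log2 fold change was -0.32, against -0.00275 over all genes, but limma, edgeR and DESeq2 called 0 in either direction; 0 were higher and 10 lower at an unadjusted limma p under 0.05. Tyms, which makes thymidylate for replication, had 123, 108, 103 and 125 in control and 58.4, 91.3, 74.5 and 91.3 in p16 replicates 1 to 4 (log2 fold change -0.55, limma adjusted p = 0.0708). Rrm2 and Mcm3, which serve nucleotide synthesis and replication licensing, had -0.65 and -0.41 (limma adjusted p = 0.123 and 0.114). Each of these 3 genes passed the threshold without 1 of the p16 samples (Tyms and Mcm3 without p16 replicate 4, Rrm2 without p16 replicate 2; limma adjusted p = 0.0351, 0.0379 and 0.0304), as did Top2a without p16 replicate 2, and no alternative called more than 2 of the list. The summed level of the list was 3533, 3841, 3773 and 4677 in control and 2750, 3751, 3140 and 3206.5 in p16 replicates 1 to 4, so the groups overlapped. The part of this list in the values of the 9 genes was not tested.

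Markers of other cell types differed between the groups. Of 11 tested markers of hair follicle stem cells, 8 fell (Cd34, Lhx2, Tcf7l1, Nfatc1, Tcf7l2, Fgf18, Sox9 and Krt15) and 0 rose, and the list, led by Krt15, summed to 12438, 16270, 12139 and 16027 in control and 9343, 9398, 9327 and 9390.4 in p16 replicates 1 to 4. Of 11 tested sebaceous markers, 9 fell (Scd1, Mgst1, Cidea, Elovl6, Plin2, Far2, Soat1, Pparg and Awat2), and the list, led by Scd1, summed to 2608, 2232, 2486 and 2481 in control and 705, 1166, 823 and 774 in p16 samples, with Cyp4f39 at 0. Of 11 tested markers of other follicle layers, 3 fell (Krt75, Krt6a and Krt35), with sums, led by Krt17, of 13749, 14656, 18540 and 20382 in control and 13061, 12787, 16121 and 12854 in p16 samples. Of 6 tested melanocyte markers, 2 fell (Dct, the most abundant, and Tyrp1), with sums of 522, 221, 133.5 and 257 in control and 72, 143, 73.7 and 48.4 in p16 samples. Of these genes, Krt15, Tcf7l2, Fgf18, Sox9, Krt35, Awat2, Dct and Tyrp1 lost the call without the library labelled p16 replicate 1 (limma adjusted p = 0.125, 0.0746, 0.0578, 0.0864, 0.107, 0.0682, 0.0745 and 0.0593) and without 1 to 5 other single samples each, where the adjusted p was at most 0.128. Without replicate 3 of both groups, 3 of the stem cell markers were called lower in place of 8, and Krt15, Nfatc1, Tcf7l2, Fgf18, Sox9, Awat2 and Tyrp1 lost the call (limma adjusted p = 0.0930, 0.0610, 0.0596, 0.140, 0.0746, 0.144 and 0.0844), as did Krt35. Calls were also lost with a pseudocount of 0.1 (Krt15, Fgf18, Krt35 and Tyrp1, limma adjusted p = 0.0516, 0.0612, 0.0651 and 0.0801), without a filter on low values (Krt15, 0.0786), with total count scaling (Sox9, 0.0510), with the replicate block (Krt35, 0.0630), in edgeR with TMM (Tyrp1) and in DESeq2 (Awat2, adjusted p = 0.0538). Without replicate 4 of both groups, Krt15, Krt35, Awat2, Dct and Tyrp1 lost the call (limma adjusted p = 0.063, 0.0582, 0.0658, 0.0795 and 0.0649). Other markers were called only in some alternatives. Postn, a stem cell marker, lay higher in p16 cells (log2 difference 0.73, limma adjusted p = 0.272) and was called higher with the replicate number as a block, without p16 replicate 4 and without replicate 4 of both groups. The number of melanocyte markers called lower ran from 0 (without control replicate 1, control replicate 4, p16 replicate 1, p16 replicate 3 or replicate 4 of both groups) to 4 (with the block, without p16 replicate 2 and in edgeR without a filter), with Mitf, Kit and Pmel called in 1 or more of these. Over all alternatives, 3 to 8 stem cell, 8 to 10 sebaceous and 2 to 3 other follicle markers were called lower. The part of these markers in the values of the 9 genes was not tested.

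Among keratinocyte markers, 1 of 8 basal genes fell (Krt15, which is also on the stem cell list) and 0 rose (Itgb4 was called higher without p16 replicate 2), with sums, led by Krt5, of 32888, 50667, 36584 and 53702 in control and 35085, 33267, 36727 and 37802 in p16 samples. Of 10 genes of differentiated keratinocytes, Lor rose and Sbsn and Ivl fell (Ivl not without control replicate 1, control replicate 3 or p16 replicate 1, limma adjusted p = 0.0610, 0.0730 and 0.0685, and neither Sbsn nor Ivl without replicate 3 of both groups, 0.0544 and 0.0976), Krt1 was also called higher in 5 alternatives, among them the replicate block and DESeq2, and the list, led by Krt10, summed to 8009, 7132, 9839 and 7769 in control and 8606, 7501, 9708 and 11199 in p16 samples. Ivl also lost its call without replicate 4 of both groups (limma adjusted p = 0.052). Of 5 tested fibroblast markers, Dcn, the most abundant, rose from between 2.6 and 10.7 in control to between 36.2 and 203 in p16 samples, while Lum was at 0 and Col3a1 and Pdgfra were at 4.6 or less. Col1a2 lay on the other side, at 17.8, 10.3, 4.2 and 9.2 in control and 1.6, 3.1, 2.7 and 3.3 in p16 replicates 1 to 4 (log2 fold change -1.51, limma adjusted p = 0.0571), and without control replicate 3 or in edgeR without a filter 1 fibroblast marker was called lower. The list summed to 27.3, 19.4, 10.8 and 26 in control and 96.0, 97.6, 221 and 42.8 in p16 samples. Of 4 tested T cell genes and 6 of Langerhans and myeloid cells, limma called 0; at an unadjusted p under 0.05 each list had 1 higher and 1 lower, edgeR without a filter called 1 higher, Thy1, and limma without a filter called 1 higher, Cd207, which had at most 0.8 in control and 1.8 to 4.7 in p16 samples. Thy1, the most abundant of its list and not particular to T cells, had 784, 792, 664 and 582 in control and 675, 1466, 827 and 2908 in p16 replicates 1 to 4, and made up nearly all of the list's sums (799, 809.8, 681 and 589.7, and 686, 1480, 831 and 2917), while Cd3e was at 3.9 or less and Ptprc at 1.6 or less. The Langerhans and myeloid list, led by Epcam and with Lyz2 at 0, summed to 1273, 1084.5, 1312 and 1166 in control and 1109, 1058, 1025 and 764 in p16 samples. Limma called 0 of the 2 tested endothelial genes, led by Pecam1, also at an unadjusted p under 0.05, and sums were at most 8.9.

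Control replicate 4 and p16 replicate 4 stood apart from the other samples on the second principal component (16.5% of the variance, with scores of -33.8 and -31.4 where the other samples lay between -3.10 and 20.4), while the first (32.1%) separated the groups. Control replicate 4 had the lowest Cdkn1b of the controls, and p16 replicate 4 had the lowest Ccne2, Ccnd2 and Epcam and the highest Ccnd3 and Thy1 of the p16 samples. With both left out, a setting chosen after the data were seen, Ccnd1 and Ccnd2 were called higher and Cdkn1b was called lower (log2 fold change -0.56, limma adjusted p = 0.0208).

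The genes whose log2(normalized value + 1) followed that of each member most closely over the 8 samples, among 10431 genes with a mean of at least 10, are given as a description; the samples share the difference between groups, so genes that differ between them follow each other. For Ccnd1 they were Atp10a and Zfp395 (Pearson r = 0.975 and 0.968), and for Ccnd2 Rpp14 and Axin2 (r = 0.989 and 0.969). Zfp395 and Axin2 were called higher (limma adjusted p = 0.0459 and 0.00379) but not without replicate 3 of both groups (0.263 and 0.0504), and Zfp395 lost the call also without any 1 of the 8 samples. Axin2, a feedback inhibitor of the Wnt pathway, had 92.0, 131, 97.7 and 107 in control and 175, 180.4, 189 and 168 in p16 replicates 1 to 4. For Ccnd3 they were Ube2e2 and Glrx2 (r = 0.977 and 0.961), for Ccne1 Gdpd1 and Tbc1d4 (r = 0.977 and 0.971), and for Ccne2 Enox1 and Agtpbp1 (r = 0.958 for both). Enox1 and Agtpbp1 shared the low value of Ccne2 in p16 replicate 4, at 2.5 and 28.8 where the other p16 samples had at least 9.4 and 45.6. For Cdk2 they were Tob2 and Ttc28 (r = 0.959 and 0.957), for Cdkn1a Sorcs2 and Ptk6 (r = 0.962 and 0.958), and for Cdkn1b Crlf3 and Sgcb (r = 0.972 and 0.942). Ptk6, an epithelial tyrosine kinase, had 15.6, 10.3, 29.2 and 18.3 in control and 5.6, 7.8, 11.5 and 9.9 in p16 replicates 1 to 4, and these overlapped at control replicate 2.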

How the data were processed

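Samples were grouped by their labels. According to the methods of the study and the submitters' processing notes, the authors sequenced transcript 3′ ends (CEL-Seq2, adapted), trimmed reads with Cutadapt, used TopHat2 with GRCm38 for alignment, and then HTSeq and DESeq2. The labels word the library preparation of replicate 3 of both groups differently, and whether it was made differently is not given. The annotation version, the strand setting and any use of molecular identifiers are not given in the sources used here. The signal values deposited by the authors are reads per gene over a sample-specific size factor, rounded to 1 decimal. Their table also holds comparison columns (fold change, statistic, p and adjusted p) and group means, which were not used. The 13 samples of a second profiling were not analysed here.

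Within each sample, 100% of values lay within 0.1 read of a whole number of reads. Total reads on genes ran from 1760953 to 3414362. Counts of up to 3 reads were taken as near the limit of detection, which covers counting error only. The main test was limma 3.58.1 (eBayes with trend, two-sided, R 4.3.3) on log2(normalized value + 1) for 12782 genes whose mean was 1 or more. Adjustment followed Benjamini and Hochberg, with a threshold of 0.05. Fold changes on this scale understate those of low genes. Exact two-sided permutation tests used normalized values (smallest p 0.0286). Alternatives were a pseudocount of 0.1, no filter, a mean of at least 5, a replicate block, each sample left out, omission of replicate 3 from both groups, total count scaling, unadjusted p, and edgeR 4.0.16 (TMM, upper quartile, no filter) and DESeq2 1.42.0 on recovered reads. Omission of replicate 4 from both groups and the alternatives for the ratio of sums were added after the data were seen. The limma, edgeR and DESeq2 comparisons and the recovery of reads were checked on simulated counts.

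The 9 genes and the lists were chosen with earlier results of these data known. Lists were described by counts and medians, without a test. Named genes were the members, transgenes and Cdkn2a, called genes of each list, the 3 with the smallest adjusted p in pathway lists with none called, the most abundant marker of each cell type, and the 2 genes with the highest Pearson r to each member with a mean of at least 10. Other genes, named for a count, an overlap or a defining marker, were chosen after their values were seen. Coordinates, transcript lengths and overlaps came from GENCODE M21 (GRCm38).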

Additional observations from a re-analysis of the deposited data

Results flagged for a closer look

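In 160 groups of 4 samples, 10 held a sample far from the other 3, where chance gives about 1 in 20. The ratio of summed Cip/Kip to summed D cyclin values was 0.449 in control replicate 3, against 0.344, 0.329 and 0.342 in the other controls; without it the log2 ratio of p16 over control was -0.94 in place of -1.06. Tob2, the gene closest to Cdk2, was 201 in p16 replicate 2 against 260 to 265 in the others, and Ube2e2, closest to Ccnd3, was 60.8 in p16 replicate 4 against at most 51.2 in the others. Among p53 targets, Eda2r was 6.2 in p16 replicate 3 against 11.5 to 12.5. Phlda2, a neighbour of Cdkn1c, was 18.4 in control replicate 3 against 4.6 to 6.4. Among markers, p16 replicate 2 was high in Mgst1 (205 against 103 to 120), Soat1 (10.1 against 4.4 to 4.9) and Dct (47.6 against 9.0 to 14.4), p16 replicate 1 was high in Nfatc1 (216 against 193 to 197), and p16 replicate 4 was low in Epcam (615 against 865 to 912). The causes of these values were not tested.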

How the results depend on the processing

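Ccnd1 and Ccnd2 were called higher in all 19 alternative fits with an adjusted p (limma, edgeR or DESeq2, up to 0.0102 and 0.0406), with log2 fold changes of 0.77 to 0.99 and 0.55 to 0.71. Ccnd3, Ccne1, Ccne2, Cdk2 and Cdkn1a were called in 0 of these 19 fits, and Cdkn1c in 0 of the 16 that tested it; a mean of at least 5 and the filter of edgeR left it out. Cdkn1b was called lower without control replicate 4 (log2 fold change -0.55, within -0.55 to -0.29 over all single samples left out) and when replicate 4 of both groups was omitted (-0.56). At an unadjusted limma p under 0.05, Ccnd3 (0.47), Ccne2 (-0.52), Cdkn1a (-0.34) and Cdkn1b (-0.41) passed too. The sign of Cdk2 turned without control replicate 1 (0.082), without p16 replicate 2 (0.049) and with total count scaling (0.025), within -0.082 to 0.082 over single samples left out. The ratio of Cip/Kip to D cyclin values (log2 of p16 over control) lay between -1.14 and -0.93 in 11 alternatives chosen after the data were seen. Counts over all genes, 159 higher and 334 lower, were 69 to 196 and 177 to 343 with single samples left out (86 and 177 without control replicate 1, 69 and 192 without p16 replicate 1, 99 higher without p16 replicate 3), 66 and 157 without replicate 3 of both groups, and 897 and 1141 at an unadjusted p. On recovered reads, edgeR with TMM called 160.0 and 299 and DESeq2 called 190.0 and 356. Same-numbered samples were not taken as pairs in the main fit. Their correlations were low (0.0549, 0.00437, 0.0463 and 0.0827, with controls 3 and 4 closest to their own number and controls 1 and 2 to the other's). Replicate 4 of both groups nevertheless lay together on the second principal component (-33.8 in control and -31.4 in p16). Shared experiments were not tested. The replicate block gave 216 and 392 and changed no call among the 9 genes (limma adjusted p = 0.0517 for Cdkn1a and 0.0808 for Cdkn1b). It moved hsCDKN2A (limma adjusted p = 0.0424), Krt35 (0.0630) and Zfp395 (0.0523) across the threshold, and on the marker lists also Postn and Krt1, called higher, and Mitf and Kit, called lower. For 70 other named genes, 1259 of 1385 values kept direction and side of the threshold, 88 were weaker, 33 stronger and 5 reversed: Krt10 without replicate 4 of both groups (-0.052) and without p16 replicate 4 (-0.0025, within -0.0025 to 0.28 over single samples left out), Tob2 without control replicate 1 (0.064) and without p16 replicate 2 (0.021, within -0.18 to 0.064), and Ttc28 without control replicate 1 (0.066, within -0.25 to 0.066). The cause of these changes was not tested. The part of depth was not tested either; Cdkn2a, Cdkn1c and hsCDKN2A had at most 18 reads in every sample and Ccne1 at most 25.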
